A study of Mus musculus with 8 samples.

Results

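The assembled loci MSTRG.25175, MSTRG.25177, MSTRG.25178 and MSTRG.25179 gave 10 long non-coding transcripts in embryos with and without an insertion at Gtl2. With the insertion on the maternal copy 9 of the 10 were near 0 in both columns, and the other was near 0 in the homozygous column only. With a paternal insertion alone, and in wild type, the 9 stood between 0.816 and 7.17 FPKM. The 10 were taken from a table of 29158 long non-coding transcripts as the rows whose identifiers run from MSTRG.25175 to MSTRG.25179 and that held 0.5 or more in at least 2 of 4 genotype columns. These loci have 43 rows in all, 33 of which missed that threshold, and no row belongs to MSTRG.25176. The members were chosen by their FPKM in these same 4 columns, and the loci were picked with their pattern known, so all levels and counts below are descriptions without a test. Values are FPKM, counts of fragments scaled to transcript length and to library size, a level per length that can be compared between transcripts. The table header names no unit, and FPKM was taken from the quantifier in the submitters' processing notes.

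RNA came from whole mouse embryos at embryonic day 12.5, per the design text. The sample titles instead give each genotype its own day, 0.1 apart, in the order WT, PKI, MKI and HOMO, so that day and genotype cannot be told apart. In the mutant embryos 3 polyadenylation cassettes, which stop transcription ahead of the gene, had been inserted in the promoter of Gtl2, also called Meg3. The groups were a paternally inherited insertion (PKI), a maternally inherited insertion (MKI), the insertion on both copies (HOMO) and embryos without it (WT). The labels list 8 libraries, 2 per genotype, but each table holds 1 column per genotype, so there are no replicates, no spread within a genotype can be given, and no p-value was computed. The sources used here do not say whether a column is 1 library or a combination. Strain, sex, and whether embryos were pooled are not given in the labels.

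Long non-coding RNAs are transcripts without a recognised protein product, and many are made as several isoforms that share exons. Gtl2 is an RNA gene of the imprinted Dlk1-Dio3 domain, in which a chain of non-coding RNAs and many microRNAs is made from the maternal copy, while the protein-coding genes Dlk1, Rtl1 and Dio3 are read from the paternal copy. StringTie, an assembler that joins aligned reads into transcripts and shares reads among overlapping isoforms, gave names of the form MSTRG, a locus number and an isoform number. The deposited table gives no position, exon structure or gene name for these loci, so whether they lie in the domain was not analysed here, and their own sequences are not shown. The RefSeq window at the first annotated start of Meg3 is shown instead, because the insertion that separates the 4 groups was placed in this promoter. It spans chr12:109540746-109541045 on the plus strand of GRCm38.p6. The 50 bases in capitals are transcribed and the 250 in lower case lie before the start. The sources used here do not give the exact insertion position.
Meg3 window: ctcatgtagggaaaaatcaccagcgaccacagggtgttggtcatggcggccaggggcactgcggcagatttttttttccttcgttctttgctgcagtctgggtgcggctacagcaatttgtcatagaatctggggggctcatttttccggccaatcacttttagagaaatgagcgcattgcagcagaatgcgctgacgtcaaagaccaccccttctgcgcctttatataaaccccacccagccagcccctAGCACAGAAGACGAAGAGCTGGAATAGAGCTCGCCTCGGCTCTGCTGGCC
This window of 300 bases holds 13 CG dinucleotides and has a G and C content of 53.7%. At least as many CG dinucleotides occur in 37.9% of the 32851 RefSeq promoter windows of the same length.

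MSTRG.25175 is represented by a single transcript, which had the highest WT level of the 10. MSTRG.25175.1 stood at 4.38 FPKM in PKI, 0 in MKI, 0.0557 in HOMO and 7.17 in WT. It was thus present in the columns without a maternal insertion and at or near 0 in those with it. MKI listed it at 0, so no ratio to WT is given there, and HOMO held 0.777% of the WT level. Among 6181 transcripts of the table at 0.5 FPKM or more in at least 2 columns, its level ranked 66 from the top in WT. MSTRG.25178.1, also the sole row of its locus, showed the same order at a lower level, with 2.50 FPKM in PKI, 0 in MKI, 0.0347 in HOMO and 3.27 in WT. HOMO held 1.06% of its WT level.

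MSTRG.25177 had 6 rows, isoforms 12 to 17, all of which passed the threshold, and it carried most of the summed level. The 6 isoforms together reached 22.0 FPKM in PKI, 1.76 in MKI, 0.0800 in HOMO and 26.2 in WT. In WT that was 64.8% of the summed level of the 10 transcripts. Isoforms 12 to 16 lay between 3.16 and 6.20 FPKM in PKI, between 0 and 0.183 in MKI, between 0 and 0.0730 in HOMO and between 2.50 and 6.20 in WT. The ranges of the columns with and without a maternal insertion do not overlap for these 5 isoforms, which passed the threshold through PKI and WT only. The share of all transcripts with such a separation was not computed.

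The most abundant of them on average, MSTRG.25177.15, stood at 6.20 FPKM in PKI, 0.183 in MKI, 0 in HOMO and 6.20 in WT. MSTRG.25177.13 stood at 4.43 FPKM in PKI, 0 in MKI, 0.0730 in HOMO and 5.60 in WT. MSTRG.25177.12 was at 3.16 FPKM in PKI, 0 in both MKI and HOMO, and 6.13 in WT. It is the only member listed at 0 in both columns with a maternal insertion. MSTRG.25177.16 stood at 0.160 FPKM in MKI, 0 in HOMO and 5.13 in WT, and PKI held 78.0% of the WT level. MSTRG.25177.14 was the only member higher in PKI than in WT, at 3.90 FPKM against 2.50, and stood at 0.0649 FPKM in MKI and 0 in HOMO. The traces left at this locus were in different isoforms of the MKI and HOMO columns. In MKI 4 of the 6 isoforms were above 0 and in HOMO 2 of 6, with 1 isoform above 0 in both.

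That isoform, MSTRG.25177.17, did not follow the others. It passed the threshold through MKI and WT only, so a high MKI value is how it became a member. It stood at 0.359 FPKM in PKI, 1.35 in MKI, 0.00704 in HOMO and 0.644 in WT, so that its highest value came from a column with a maternal insertion. MKI held 210% of the WT level and HOMO 1.09%. On the log2(FPKM + 0.5) scale, which understates the fold of low transcripts, MKI was 1.11 above PKI and 0.70 above WT, while the difference of HOMO from MKI was -1.87. On the same scale, MKI was 0.79 above PKI after quantile normalization. It was 0.81 above with column factors from trimmed means of log ratios (TMM). Both are below 2-fold with the added 0.5, which is not the fold of the FPKM values themselves. The isoform made up 1.63% of the locus in PKI, 76.9% in MKI, 8.79% in HOMO and 2.46% in WT. Nearly all of the small HOMO level was isoform 13, at 91.2% of the locus sum. That sum was 0.0800 FPKM, so the HOMO percentages rest on very low values.

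**Figure D1:**
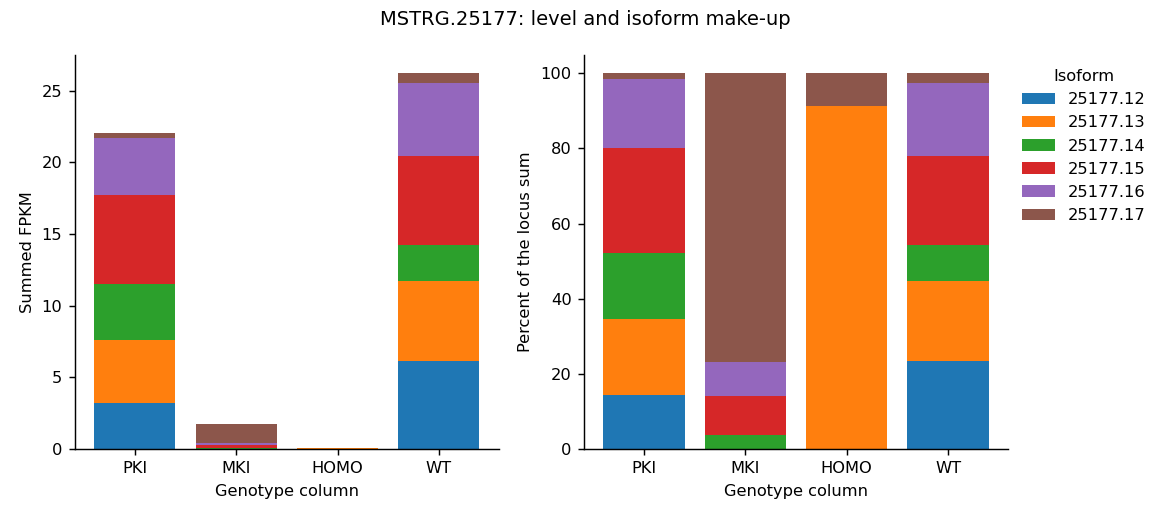
Level and isoform make-up of MSTRG.25177 in the 4 genotype columns, as summed FPKM (left, y axis) and as percent of the locus sum (right, y axis), with colours for isoforms 12 to 17. The stack reaches 22.0 FPKM in PKI and 26.2 in WT with similar proportions, against 1.76 in MKI, of which isoform 17 is 76.9%, and 0.0800 in HOMO.

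MSTRG.25179 was the most finely divided locus, with 35 rows of which 2 passed the threshold. MSTRG.25179.1 stood at 1.06 FPKM in PKI, 0.160 in MKI, 0.0777 in HOMO and 1.11 in WT. With 14.4% of the WT level left in MKI and 6.99% in HOMO, it kept a larger fraction than the other members except isoform 17 of MSTRG.25177 in MKI. MSTRG.25179.35 stood at 0.816 FPKM in PKI, 0.0693 in MKI, 0 in HOMO and 2.67 in WT. It was the only member 2-fold lower in PKI than in WT, by a log2(FPKM + 0.5) difference of -1.27.

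Summed over all 35 rows, MSTRG.25179 reached 8.96 FPKM in PKI, 0.247 in MKI, 0.1998 in HOMO and 13.6 in WT. PKI thus held 65.8% of the WT sum, MKI 1.82% and HOMO 1.47%. Of the 35 rows 30 were above 0 in PKI, 3 in MKI, 8 in HOMO and 31 in WT, and none reached 0.5 FPKM in MKI or HOMO. Over all 29158 transcripts of the table, 42.6% were listed at 0 in PKI, 50.7% in MKI, 46.5% in HOMO and 41.1% in WT. Which isoforms carried the level differed between PKI and WT. PKI and WT each had 7 rows at 0.5 FPKM or more, and 2 of these were common to both. Those 2 are the members by rule, because no row reached 0.5 FPKM in MKI or HOMO. The same overlap over all transcripts was not computed. MSTRG.25179.8 stood at 0.167 FPKM in PKI against 1.88 in WT, and MSTRG.25179.4 at 0.00936 against 1.04. In the other direction MSTRG.25179.11 stood at 1.08 FPKM in PKI against 0.245 in WT, and MSTRG.25179.37 at 1.19 against 0.431. These 4 isoforms were picked as examples after their values were seen, and all 4 were at 0.06 FPKM or less in MKI and HOMO. The isoform shares of the locus overlapped by 47.5% between PKI and WT, where 100% would be the same make-up, against 87.4% for MSTRG.25177. That locus has 6 rows, while MSTRG.25179 has 35, and its 33 rows below the threshold had medians of 0.117 FPKM in PKI and 0.163 in WT. No other locus was compared, so the difference in overlap has no background. Isoforms of a locus share reads, so how the assembler divided them is part of each isoform value, and the locus sums depend on that less.

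**Figure D2:**
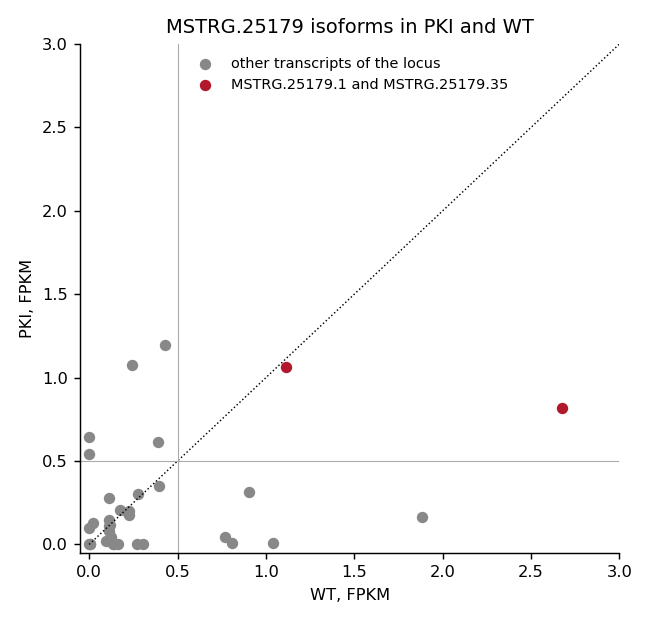
Levels of the 35 transcripts of MSTRG.25179 in PKI (y axis, FPKM) and WT (x axis, FPKM), with equality as the dotted line and 0.5 FPKM as grey lines. MSTRG.25179.1 and MSTRG.25179.35, in red, reach 0.5 FPKM in both columns, which is how they became members. By the same rule, other transcripts at 0.5 or more in one of these columns are below it in the other.

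Seen over the 10 transcripts, the columns with a maternal insertion were below both other columns for 9. These 9 passed the 0.5 FPKM threshold through PKI and WT only, so this order is not a separate result. Shares of all transcripts with such an order of columns were not computed. The levels of these 9 ran from 0.816 to 6.20 FPKM in PKI (median 3.90), from 0 to 0.183 in MKI (median 0.0649), from 0 to 0.0777 in HOMO (median 0) and from 1.11 to 7.17 in WT (median 5.13). PKI was the highest column for 1 of the 10, MKI for 1 and WT for 8. The same shares over all transcripts were not computed, so these counts have no background. With no replicates, the order of PKI and WT within a transcript cannot be set against a spread. The summed level of the 10 was 30.8 FPKM in PKI, 1.99 in MKI, 0.248 in HOMO and 40.4 in WT. PKI held 76.2% of the WT sum, MKI 4.92% and HOMO 0.614%. Without MSTRG.25177.17 the MKI share was 1.60% and the HOMO share 0.606%. In whole embryos, fewer cells making a transcript and less RNA per cell cannot be told apart.

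**Figure D3:**
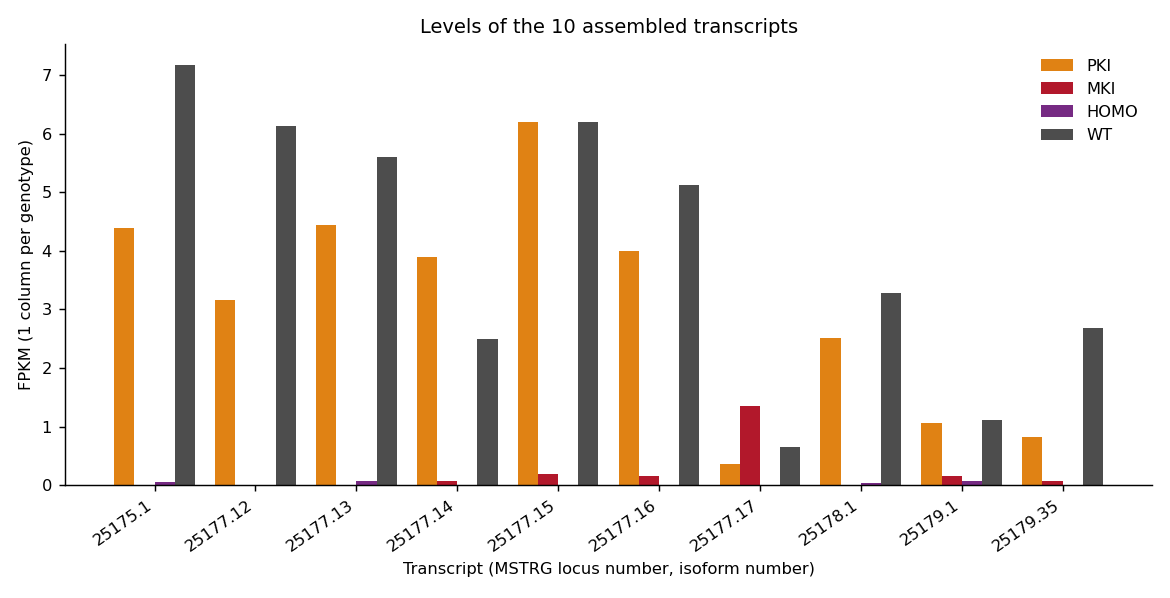
Levels of the 10 assembled transcripts (y axis, FPKM) by transcript (x axis), with a bar for each genotype column and no error bars because there is 1 column per genotype. PKI and WT bars stand above MKI and HOMO bars for every transcript except MSTRG.25177.17, where MKI is highest at 1.35 FPKM.

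The comparisons ask what a maternal or a paternal insertion goes with on either background of the other parent's copy. A transcript was counted as lower or higher at a 2-fold difference of FPKM + 0.5. In MKI against WT, 9 of the 10 were lower, where 6.26% of the 6181 transcripts were lower, and none was higher, where 6.5% were. The median log2 difference was -3.00 (range -3.94 to 0.70) and that of all transcripts 0.23. In HOMO against PKI, a pair that shares no column with MKI against WT, 9 were lower, where 4.29% of all were lower, and none was higher, where 2.83% of all were. The median was -2.99 (range -3.74 to -0.76) and that of all -0.09. The same 9 were lower in both pairs, as were 97 of the 6181 transcripts, or 1.57%. The transcript outside the 9 was MSTRG.25177.17, which was 0.70 higher in MKI than WT and 0.76 lower in HOMO than PKI. These shares are printed as background only, since the loci were chosen for this contrast.

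In HOMO against WT all 10 were lower, where 5.19% of all were lower, and none was higher, where 2.99% of all were. The median was -3.12 (range -3.79 to -1.17) and that of all -0.22. In MKI against PKI 9 were lower, where 5.86% of all were lower, and MSTRG.25177.17 was higher, where 8.51% of all were higher. The median of the 10 was -2.82 there and that of all was 0.36. A difference to a column listed at 0 is limited by the added 0.5, and 4 of the 10 were listed at 0 in MKI and 5 in HOMO. Of the 6181 transcripts, 1.76% were listed at 0 in PKI, 3.59% in MKI, 2.90% in HOMO and 1.84% in WT.

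In the absence of a maternal insertion, the paternal insertion went with smaller differences. In PKI against WT 1 of the 10 was lower, where 3.46% of all were lower, and none was higher, where 3.03% of all were higher. The median was -0.33 (range -1.27 to 0.55) and that of all transcripts -0.13. As deposited 9 of the 10 had a lower value in PKI than WT, with MSTRG.25177.15 equal at the precision printed, and 7 of 10 after TMM or quantile scaling. In HOMO against MKI 1 of the 10 was lower, MSTRG.25177.17, where 12.1% of all were lower, and none was higher, where 4.85% of all were higher. The median was -0.18 (range -1.87 to 0.20) and that of all was -0.45. The other 9 were at 0.183 FPKM or less in MKI and 0.0777 or less in HOMO. With 0.5 added, none of these 9 could differ by 2-fold, so their count was fixed by their low levels. Without the added 0.5, the log2 ratio of their summed levels was -1.40. By value, 3 members were higher in HOMO than MKI, 6 were lower and 1 was at 0 in both. Shares of all transcripts by direction alone were not computed for PKI against WT or HOMO against MKI. As deposited, the median of all was negative in both. Comparisons that share a column are not independent of each other. The background shares shift with the scaling: after TMM scaling 7.38% of all were lower and 3.88% higher in MKI against WT, 4.3% and 4.13% in HOMO against WT, 7.7% and 3.9% in MKI against PKI, and 4.9% and 8.3% in HOMO against MKI. The counts of 9 lower members in MKI against WT and in HOMO against PKI were 9 after either scaling.

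**Figure D4:**
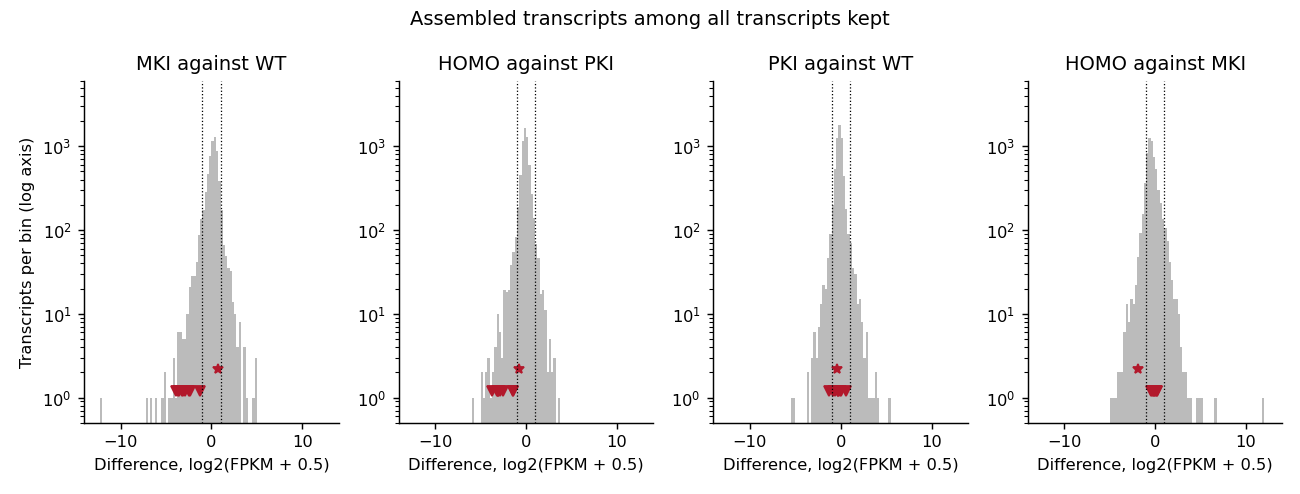
Differences on the log2(FPKM + 0.5) scale (x axis) of the 6181 transcripts kept (grey histogram, counts on a log y axis) for 4 comparisons, with 9 of the assembled transcripts as triangles, MSTRG.25177.17 as a star and 2-fold as dotted lines. Triangles sit below -1 in MKI against WT and HOMO against PKI. In PKI against WT they run from -1.27, for MSTRG.25179.35, to 0.55. In HOMO against MKI all 9 lie within 2-fold, as their low levels with the added 0.5 allow no more.

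The pattern was next looked for in the rest of the table. At 0.2 FPKM or less in MKI and HOMO and 1 FPKM or more in PKI and WT there were 30 transcripts, or 0.485% of the 6181, of which 8 were members and 22 were not, 11 of these with an Ensembl transcript ID and 11 assembled. Likeness to the 10 was measured as the Euclidean distance between the 3 log2 differences from WT and their median profile, over 6171 transcripts outside the loci. The nearest was MSTRG.52341.11, at 4.13 FPKM in PKI, 0 in MKI, 0 in HOMO and 5.01 in WT (distance 0.58). Next was ENSMUST00000183180, at 3.00 FPKM in PKI, 0.149 in MKI, 0.264 in HOMO and 3.86 in WT (distance 0.66). Among the members the distance ran from 0.31 for MSTRG.25178.1 to 4.18 for MSTRG.25177.17. The tables used here do not pair transcript IDs with gene names, and 6 of the 10 nearest carry an Ensembl ID.

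Readouts of the Dlk1-Dio3 domain from the other tables are set beside these levels, from a list of domain RNAs. The small-RNA table gives reads scaled to a common total (RPM). Summed over 98 listed domain microRNAs, it held 124829 RPM in PKI, 4075 in MKI, 4254 in HOMO and 137049 in WT. That is 91.1% of the WT sum in PKI, 2.97% in MKI and 3.10% in HOMO, beside 76.2%, 4.92% and 0.614% for the 10 assembled transcripts. RPM and FPKM are scaled differently, so these percentages are not on a like scale. For the 10, the log2 ratio of summed levels in PKI against WT was -0.39 as deposited and -0.19 after TMM scaling. Without MSTRG.25177.17 the MKI share was 1.60% and the HOMO share 0.606%. Of the 76 domain microRNAs at 10 RPM or more in at least 2 columns, all were 2-fold lower in MKI than WT. All 76 were also 2-fold lower in HOMO than PKI. Of the 505 small RNAs at that level, 17.2% and 17.4% were lower in the same pairs. The 505 include the 76, so these shares are raised by the domain microRNAs themselves. Dlk1, which encodes a membrane protein with similarity to Notch ligands, stood at 55.7 FPKM in PKI, 83.4 in MKI, 181 in HOMO and 80.5 in WT. Rtl1, a retrotransposon-derived gene, stood at 0.610 FPKM in PKI, 2.28 in MKI, 2.51 in HOMO and 1.02 in WT. Dio3, a deiodinase that inactivates thyroid hormone, stood at 0.416 FPKM in PKI, 0.217 in MKI, 1.42 in HOMO and 0.568 in WT. Neither Rtl1 nor Dio3 nor Dlk1 had its lowest levels in MKI and HOMO together. The long RNAs Meg3, Rian, Mirg and Rtl1as were not matched by name and are not analysed here.

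The columns differ beyond the insertion. Across the 6181 transcripts, which are not independent replicates and share the table's normalization, Pearson's r of the log2 levels was 0.793 for PKI and WT, 0.750 for HOMO and PKI and 0.723 for HOMO and WT, but 0.581 to 0.595 for MKI with PKI, HOMO or WT. The MKI column is therefore least like the rest, and the part of this in the MKI values was not tested. The HOMO against PKI difference does not use the MKI column. The loci were picked with the HOMO and PKI values known as well, so this pair is not a separate check. HOMO and PKI also differed in the levels of tissue markers given below. Depth behind the FPKM columns is unknown. Tissue markers of a whole embryo were present in every column, among them Hbb-y of embryonic red cells at 3798 FPKM in PKI, 2237 in MKI, 5619 in HOMO and 2334 in WT. Other markers were also above 0 in each column but differed in level between the columns compared. Afp of fetal liver and yolk sac stood at 96.2 FPKM in PKI, 457 in MKI, 365 in HOMO and 292 in WT. Col2a1 of cartilage stood at 27.8 FPKM in PKI, 18.8 in MKI, 58.1 in HOMO and 68.0 in WT. Dcx of neurons stood at 26.4 FPKM in PKI, 80.2 in MKI, 42.5 in HOMO and 54.2 in WT. These levels differ by more than 2-fold in several pairs of columns. Krt5 of epidermis stood at 32.4 FPKM in PKI, 11.8 in MKI, 12.4 in HOMO and 13.6 in WT, and Myl7 of heart at 24.9 FPKM in PKI, 5.11 in MKI, 9.67 in HOMO and 15.5 in WT. The part of these differences in the levels of the 10 transcripts was not tested.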

How the data were processed

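Total RNA of whole mouse embryos was selected with oligo(dT) and made into strand-marked paired-end libraries, per the labels' protocols. The build was GRCm38 and the tools included StringTie 1.3.4d, HISAT2 2.0.4 and cutadapt 1.9, per the submitters' processing notes, which also name DESeq2 and edgeR without a role. The deposited FPKM values were used as the authors made them. The deposited small-RNA values are RPM, of which 100% are whole multiples of 1 read to within 0.02 of a read, with 10072670 reads in PKI, 8638401 in MKI, 8016848 in HOMO and 8405962 in WT. With 1 column per genotype no count model or limma fit could be made on any table.

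Members, lists and comparisons were chosen with earlier results of these data known. Transcripts at 0.5 FPKM in at least 2 of 4 columns were compared as log2(FPKM + 0.5), and counted at 2-fold, with Python 3.11.15, numpy 2.4.6 and pandas 2.3.3. Counting steps were tested on simulated data. Every member is given by value, and the 2 nearest patterns are named. The threshold lies between MSTRG.25177.17, whose second-highest column is 0.644 FPKM, and MSTRG.25179.37, with 0.431. The Meg3 window is from RefSeq. Alternatives were pseudocounts of 0.1 and 1, no filter, a filter at 2 FPKM, quantile normalization and trimmed means of log ratios (TMM). Leaving out MSTRG.25177.17 was added after seeing the data.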

Additional observations from a re-analysis of the deposited data

Results flagged for a closer look

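MSTRG.25177.17 had differences of opposite sign with the maternal insertion on the 2 paternal backgrounds, both below 2-fold with the added 0.5. It was 0.70 higher in MKI than WT and differed by -0.76 in HOMO against PKI on the log2(FPKM + 0.5) scale, with 1 column behind each value. The flag needed at least 0.5 each way and was set on the values as deposited. A high MKI value is also how this isoform became a member. The difference between the backgrounds was not tested.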

How the results depend on the processing

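No paired analysis was possible because the columns carry no replicate numbers, and no replicate could be left out. Of 147 alternative values 114 stayed within 1.5-fold of the reported one, 33 moved further and none changed direction from a 2-fold difference. For log2 values this means a 1.5-fold change in the level, not in the log2 value. Counts were compared as plain numbers. In HOMO against WT, 10 lower of 10 and 15 lower of 42 without a filter were thus labelled the same. Median log2 differences scale with the pseudocount. At 0.1 they were -4.40 for MKI against WT, -4.92 for HOMO against WT, -4.78 for HOMO against PKI and -4.54 for MKI against PKI, and at 1 they were -2.25, -2.33, -2.17 and -2.08 for the same comparisons. At 0.1 there were 3 transcripts lower in HOMO than MKI. With the pseudocount added, MSTRG.25177.17 was not 2-fold higher in MKI than PKI at a pseudocount of 1, quantile normalization or TMM scaling. The 2 FPKM filter removed it, so the count of higher transcripts was 0 under each.

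Without a filter, over 42 transcripts above 0, the medians were -0.56 for MKI against WT, -0.60 for HOMO against WT, -0.47 for HOMO against PKI and -0.45 for MKI against PKI. Then 14 were lower in MKI than WT, 14 in HOMO than PKI and 14 in MKI than PKI, and in PKI against WT 5 were lower and 3 higher. Shares over all transcripts were not computed without the filter. The filter at 2 FPKM left 7 transcripts, with 0 lower in PKI than WT and 0 lower in HOMO than MKI. The log2 ratio of summed levels there was -6.46 for MKI against WT, -6.13 for MKI against PKI and -1.32 for HOMO against MKI. Without MSTRG.25177.17 these ratios were -5.97, -5.58 and -1.40, against -4.34, -3.95 and -3.00 with it, and TMM scaling gave -2.37 for HOMO against MKI. Over all rows of its locus MSTRG.25179.35 took 9.11% in PKI and 19.6% in WT, against 43.4% and 70.6% over the members. As deposited, the median of all transcripts lay at up to -0.45 (HOMO against MKI), and scaling brought it to -0.03.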

Other observations

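The locus number MSTRG.25173, outside the rule but close to it in number, has 13 rows. Its rows summed to 1.73 FPKM in PKI, 0.430 in MKI, 0.0915 in HOMO and 4.33 in WT, and none reached 0.5 FPKM in 2 columns. MSTRG.25173.13, the highest row in WT, stood at 0 FPKM in PKI, MKI and HOMO against 1.64 in WT. This locus was looked at after its values were seen, and its position was not analysed here.

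The 33 transcripts of MSTRG.25179 below the threshold summed to 7.08 FPKM in PKI, 0.0180 in MKI, 0.122 in HOMO and 9.83 in WT. Of them 5 were listed at 0 in PKI, 32 in MKI, 26 in HOMO and 4 in WT. The only one above 0 in MKI was MSTRG.25179.28, at 0.0180 FPKM, against 0.113 in WT.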
